A study of Mus musculus with 10 samples.

Results

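The genes described are 10 components of the unfolded protein response, the program by which cells adjust the folding capacity of the endoplasmic reticulum (ER) to the load of secreted and membrane proteins. They were chosen by name as Hspa5, Hsp90b1, Dnajc3, Xbp1, Ern1, Ern2, Atf6, Atf4, Ddit3 and Creb3l1, and all 10 were present among the 16875 gene names of the expression table. Their mRNA was compared between 5 control and 5 Villin-WlscKO colon tumors, measured as FPKM (fragments per kilobase of transcript, scaled to the mapped reads). Both groups carried the floxed Wls alleles (Wls flox/flox) on a C57BL/6 background. Wls encodes the membrane protein that Wnt ligands need in order to be secreted. Colon tumors had been induced in mice aged 6 to 10 weeks at the start by azoxymethane followed by 3 cycles of dextran sulfate sodium (AOM/DSS). Villin-WlscKO mice carried Villin-Cre ERT2 in addition, a tamoxifen-inducible recombinase driven in intestinal epithelium, and received 5 tamoxifen injections that began 30 days before collection. Control tumors had intact Wls and, according to the study's description of its controls, no tamoxifen. The tumors were macrodissected and held stromal and immune cells, which the driver does not target and whose Wls was not measured separately.

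Proteins enter the ER unfolded and are bound there by chaperones, of which BiP (encoded by Hspa5) is the most abundant. When unfolded proteins accumulate, the sensors IRE1, PERK and ATF6 signal to the nucleus. IRE1 splices Xbp1 mRNA into the form that encodes the active transcription factor, ATF6 is cleaved in the Golgi apparatus to release a transcription factor, and PERK slows translation while favoring that of Atf4. In the colon the pathway is known mainly from goblet cells, which secrete mucin in bulk and depend on Ern2 (IRE1 beta), Xbp1 and the disulfide isomerase Agr2. Splicing of Xbp1, cleavage of Atf6 or Creb3l1 proteins and translation of Atf4 are not measured by the FPKM of a gene, so every value below is an mRNA level.

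Before the members, the labels were checked. Wls lay between 61.3 and 79.9 FPKM in the controls and between 2.03 and 11.7 FPKM in the Villin-WlscKO group. The groups also differed in sex, since Xist was between 439 and 701 FPKM in the Villin-WlscKO group and at most 0.420 FPKM in the controls, and the Y-linked Eif2s3y was at least 30.4 FPKM in the controls and at most 0.138 FPKM in the Villin-WlscKO group. Wls deletion, the Cre transgene, tamoxifen and sex therefore cannot be told apart in any comparison here. Krt5, a keratin of stratified squamous epithelium, was at 469.5 and 669 FPKM in the Villin-WlscKO group 2 and 3 and at most 0.315 FPKM in the other 8 tumors, so results that depend on that pair are given with and without it. FPKM summed to between 1207683 and 1533885 per tumor and the number of reads behind a value is unknown. How many mice the tumors came from is not given in the sources used here, so p-values measure the spread between tumors.

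The promoters of 7 members were listed in the RefSeq table for GRCm38.p6, as windows of 300 bases that run from 250 bases before the transcription start to 50 after it. The ER stress response element (ERSE), which ATF6 binds together with NF-Y, was searched on both strands as CCAAT and CCACG with 9 bases of any kind between them. It occurred in Hspa5, Hsp90b1 and Dnajc3 and not in the windows of Xbp1, Ern1, Atf4 or Ddit3. Those sequences are printed because they are the ones with a match among the ER-resident members. Capitals mark the ERSE, and each sequence is given from 5′ to 3′ on the strand of its gene. The Hspa5 window is chr2:34771840-34772139 on the plus strand, the Hsp90b1 window is chr10:86705395-86705694 on the minus strand, and the Dnajc3 window is chr14:118937682-118937981 on the plus strand.
Hspa5: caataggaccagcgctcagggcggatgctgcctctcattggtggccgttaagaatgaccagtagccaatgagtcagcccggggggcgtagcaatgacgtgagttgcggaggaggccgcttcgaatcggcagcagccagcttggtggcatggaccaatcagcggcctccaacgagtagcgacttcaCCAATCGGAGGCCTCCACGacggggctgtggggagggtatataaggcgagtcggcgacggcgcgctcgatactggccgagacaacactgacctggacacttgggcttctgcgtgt
Hsp90b1: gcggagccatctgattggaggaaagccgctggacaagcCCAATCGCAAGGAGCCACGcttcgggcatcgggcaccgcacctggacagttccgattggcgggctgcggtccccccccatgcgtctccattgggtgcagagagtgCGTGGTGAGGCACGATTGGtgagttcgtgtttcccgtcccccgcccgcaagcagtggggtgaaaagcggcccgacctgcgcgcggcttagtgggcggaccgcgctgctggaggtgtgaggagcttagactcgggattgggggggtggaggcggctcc
Dnajc3: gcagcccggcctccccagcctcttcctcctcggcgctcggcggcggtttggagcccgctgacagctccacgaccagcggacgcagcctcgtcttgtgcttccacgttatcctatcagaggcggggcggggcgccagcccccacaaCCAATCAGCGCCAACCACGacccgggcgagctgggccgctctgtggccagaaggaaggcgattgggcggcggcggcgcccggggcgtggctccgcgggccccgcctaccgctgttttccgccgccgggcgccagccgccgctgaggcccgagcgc
Hspa5 held 1 exact match to the ERSE, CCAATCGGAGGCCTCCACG, which began 65 bases before the start site. Hsp90b1 held 2, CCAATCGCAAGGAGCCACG on the strand of the gene and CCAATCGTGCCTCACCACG on the opposite strand, so that the latter appears in the printed sequence as its reverse complement. Dnajc3 held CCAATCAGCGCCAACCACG.

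Of the 10 members, 3 rose in Villin-WlscKO tumors (Hspa5, Xbp1 and Dnajc3), none fell, and the other 7 did not pass the threshold, an adjusted p under 0.05 in limma over all 16757 genes tested. The 3 that rose were 2 ER-resident proteins of the folding machinery and the transcription factor that IRE1 activates. Over all genes tested, 6.12% were called higher and 4.75% lower. The median log2 change of the 10 was 0.47, against 0.0073 over all genes tested, and 9 of the 10 changes were above 0. At an unadjusted limma p under 0.05, 6 members were higher and 0 lower. The share of all genes tested at that unadjusted p was not computed. This count and those of the lists below therefore have no background to be set against. Hspa5, Xbp1, Dnajc3 and Atf4 were higher in all 5 Villin-WlscKO tumors than in any control, a pattern shown by 5.33% of all genes tested. The division of all calls into higher and lower depended on scaling, with 56.3% of calls higher as deposited, 77.1% when FPKM sums were made equal between tumors and 44.3% after quantile normalization, and all 3 members that rose kept their direction in each. In these bulk samples a different number of cells of a type and a different amount of RNA per cell cannot be told apart.

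**Figure D1:**
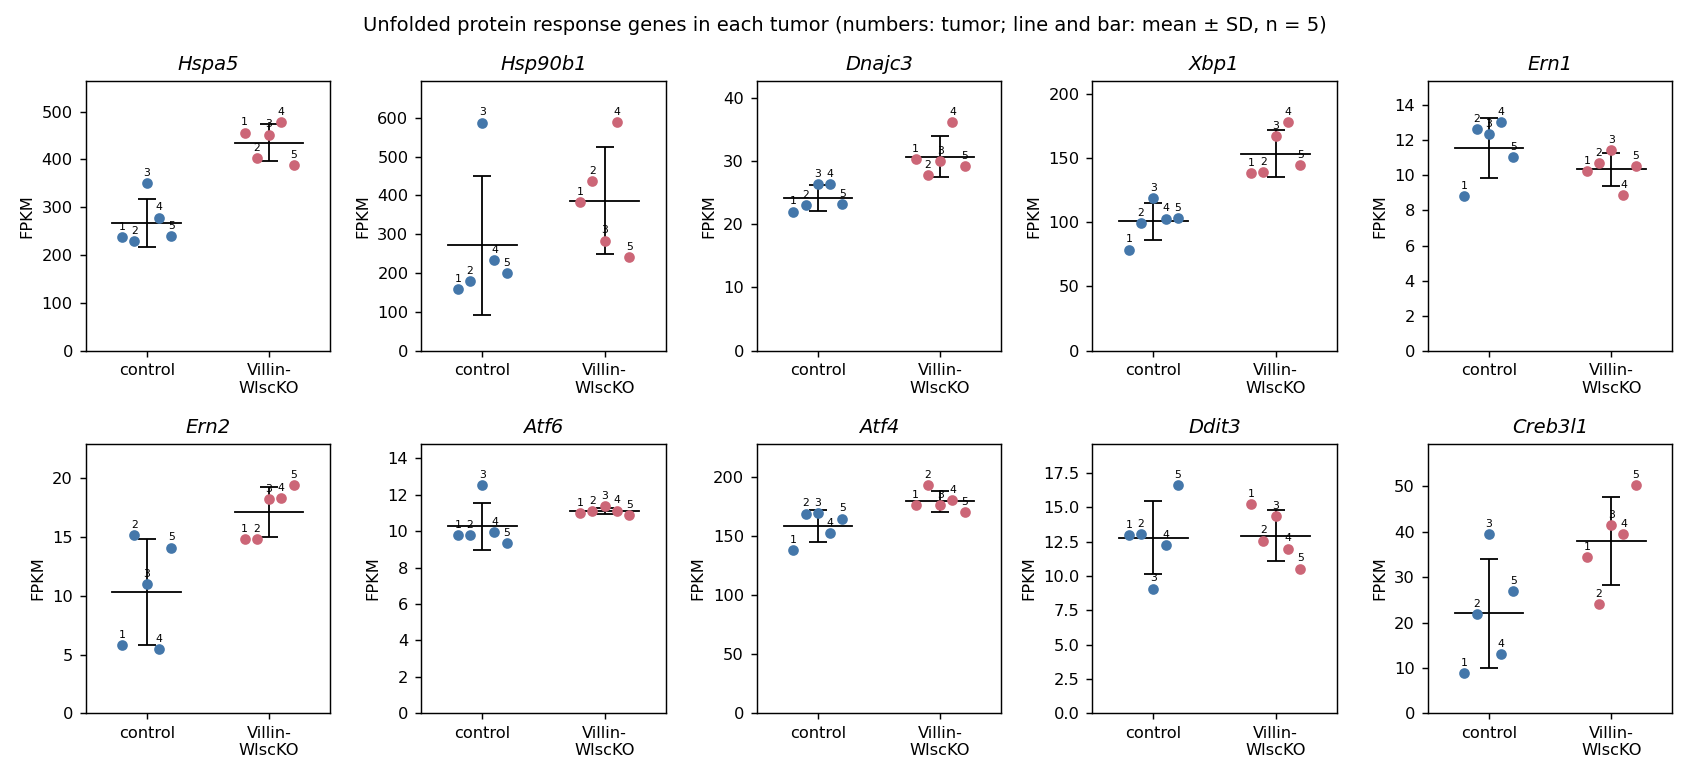
FPKM (linear axis from 0) of the 10 members in the 5 control (blue) and 5 Villin-WlscKO (red) tumors, with tumor numbers beside the points and a line and bar for the mean and SD of 5 tumors. The groups are separate for Hspa5, Dnajc3, Xbp1 and Atf4 and overlap for the other 6. Control tumor 3 is at the top of its group for Hspa5, Hsp90b1, Xbp1, Atf6, Creb3l1 and, narrowly, Atf4.

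Hspa5, on chromosome 2 from 34771970 to 34777547 (assembly GRCm38, positions of GENCODE M21), encodes BiP, the Hsp70 chaperone of the ER that also holds the sensors inactive. It was at 237, 229, 351, 278 and 239 FPKM in the controls 1 to 5 and at 456, 403, 452, 478 and 388 FPKM in the Villin-WlscKO group 1 to 5. The lowest Villin-WlscKO tumor therefore lay above the highest control tumor. Its mean was 267 ± 50.5 FPKM in control and 435 ± 38.1 FPKM in Villin-WlscKO tumors (SD, 5 tumors per group), 1.63-fold higher in the latter. The log2 change was 0.72 (standard error, SE, 0.12, limma adjusted p = 0.00438), and it stayed past the threshold in all 22 alternative settings, between 0.55 and 0.82.

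Hsp90b1, on chromosome 10 from 86690209 to 86705509, encodes GRP94, the Hsp90 chaperone of the ER. Control tumors 1 to 5 had 159, 179, 588, 234 and 199.8 FPKM, and Villin-WlscKO tumors 1 to 5 had 384, 437, 284, 589 and 241 FPKM. Control tumor 3 was thus level with the highest Villin-WlscKO tumor, whereas the other 4 control tumors lay below every Villin-WlscKO tumor. The change of 0.62 (SE 0.36) fell short of the threshold (limma adjusted p = 0.312), and without control tumor 3 it was 0.94 and passed (limma adjusted p = 0.0368). The names Gm15344 and Gm25745, a transcript and a miRNA annotated inside the Hsp90b1 locus, carried the same 10 values, so the FPKM belongs to the locus rather than to Hsp90b1 alone.

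Dnajc3, on chromosome 14 from 118937976 to 118981697, encodes P58IPK, a co-chaperone of BiP that also inhibits PERK. Its values were 22.0, 23.0, 26.3, 26.4 and 23.2 FPKM in the controls and 30.3, 27.8, 30.02, 36.1 and 29.2 FPKM in the Villin-WlscKO group, without overlap. The rise from 24.2 ± 2.03 to 30.7 ± 3.19 FPKM (SD, 5 tumors per group) was small, with a log2 change of 0.33 (SE 0.085, limma adjusted p = 0.0324). This call was close to the threshold: it was lost after quantile normalization (limma adjusted p = 0.055), without Villin-WlscKO tumors 2 and 3 (0.0613), and when control tumor 1, 2 or 5 or Villin-WlscKO tumor 1, 3, 4 or 5 was left out (adjusted p between 0.052 and 0.0771), with the change above 0 each time.

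Xbp1, on chromosome 11 from 5520659 to 5525893, encodes the transcription factor that drives genes of ER translocation, folding and degradation and that secretory cells need. Control tumors 1 to 5 had 78.7, 99.4, 119, 103 and 103 FPKM, and Villin-WlscKO tumors had 138, 139, 167, 178 and 144 FPKM. Every Villin-WlscKO tumor was above every control tumor, and the mean went from 101 ± 14.4 to 153 ± 18.1 FPKM (SD, 5 tumors per group). The log2 change of 0.61 (SE 0.11, limma adjusted p = 0.00764) stayed past the threshold in all 22 alternatives, between 0.50 and 0.71.

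The IRE1 sensors that splice Xbp1 mRNA did not pass the threshold. Ern1, on chromosome 11 from 106394650 to 106487852 and expressed in most cell types, had 8.81, 12.6, 12.3, 13.04 and 11.03 FPKM in the controls and 10.2, 10.7, 11.4, 8.89 and 10.6 FPKM in the Villin-WlscKO group. The groups overlapped, and the change of -0.14 had a 95% interval from -0.39 to 0.11 (limma adjusted p = 0.482). Ern2, on chromosome 7 from 122169893 to 122186207, encodes the IRE1 form restricted to mucin-secreting epithelium. It was at 5.79, 15.1, 11.0, 5.49 and 14.1 FPKM in the controls and at 14.8, 14.8, 18.2, 18.3 and 19.4 FPKM in the Villin-WlscKO group. Control tumors 1 and 4 were lowest, control tumor 2 lay above Villin-WlscKO tumors 1 and 2, and Villin-WlscKO tumors 3, 4 and 5 lay above every control tumor. The change of 0.78 (95% interval from 0.20 to 1.35) had a limma adjusted p of 0.0876 and did not pass in any of the 22 alternatives (0.0547 to 0.19). Since FPKM is scaled to transcript length, the levels of both genes may be set side by side. The ratio of Ern2 to Ern1 FPKM was 0.889 ± 0.36 (SD, n = 5) in control tumors, from 0.421 to 1.28, and 1.67 ± 0.282 (SD, n = 5) in Villin-WlscKO tumors, from 1.38 to 2.06, so that Ern2 exceeded Ern1 in all 5 Villin-WlscKO tumors and in control tumors 2 and 5. This ratio was given as a description and was not tested.

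Atf6, on chromosome 1 from 170704674 to 170867771, encodes the membrane-bound factor whose cleaved form induces ER chaperones. It was at 9.77, 9.77, 12.5, 9.93 and 9.36 FPKM in the controls and at 10.99, 11.1, 11.4, 11.1 and 10.9 FPKM in the Villin-WlscKO group. Apart from control tumor 3, which was the highest of all 10, control tumors lay below Villin-WlscKO tumors, and the change of 0.11 (95% interval from -0.077 to 0.29) did not pass (limma adjusted p = 0.468).

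Atf4 and Ddit3 belong to the PERK branch. Atf4, on chromosome 15 from 80255184 to 80257541, encodes the factor that induces genes of amino acid supply. It had 138, 169, 169, 153 and 165 FPKM in the controls and 176, 193, 176, 180.2 and 170.3 FPKM in the Villin-WlscKO group. The groups did not overlap, but the lowest Villin-WlscKO value and the highest control value were nearly equal, and the change of 0.18 (SE 0.071) did not pass (limma adjusted p = 0.142). Ddit3, on chromosome 10 from 127290774 to 127296288, encodes CHOP, the factor that links lasting ER stress to cell death. Control tumors had 12.97, 13.05, 9.08, 12.2 and 16.6 FPKM and Villin-WlscKO tumors 15.2, 12.6, 14.3, 11.99 and 10.5 FPKM. Both the lowest and the highest value belonged to control tumors. The change was 0.026 with a 95% interval from -0.30 to 0.35 (limma adjusted p = 0.94), and its direction depended on the setting, as it was below 0 in 6 of 22 alternatives. Mars, which encodes methionyl-tRNA synthetase, overlaps Ddit3 on the opposite strand, and whether strand was used in quantification is not given in the sources used here.

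Creb3l1, on chromosome 2 from 91982328 to 92024502, encodes OASIS, an ER-bound relative of ATF6 found in cells that secrete matrix or mucin. Its values were 8.87, 21.8, 39.4, 13.1 and 26.9 FPKM in the controls and 34.4, 23.97, 41.5, 39.5 and 50.3 FPKM in the Villin-WlscKO group. Villin-WlscKO tumors 3, 4 and 5 were above every control tumor, tumor 4 only narrowly, and control tumor 3 was above Villin-WlscKO tumors 1 and 2. The change of 0.89, the largest of the 10, also had a large SE of 0.35 and did not pass (limma adjusted p = 0.141). It was 1.14 without control tumor 3 and then passed (limma adjusted p = 0.0454).

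**Figure D2:**
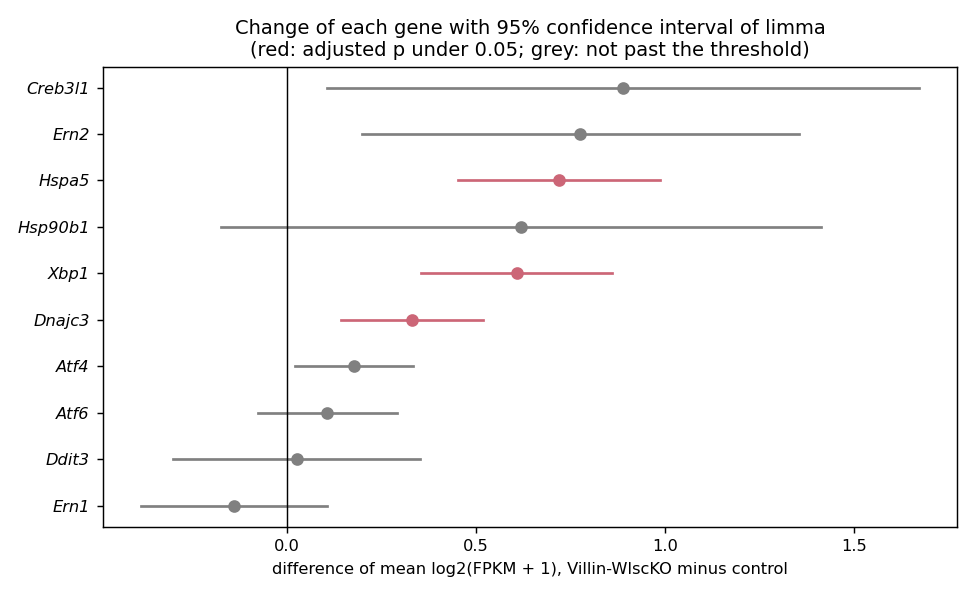
Change of each member (Villin-WlscKO less control, log2(FPKM + 1) scale) as a point with its 95% confidence interval from limma. The intervals of Hspa5, Xbp1 and Dnajc3, in red, lie above 0 and pass the threshold; those of Creb3l1, Ern2 and Atf4 also lie above 0 but did not pass it after adjustment over 16757 genes.

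Among levels per length, Hsp90b1 and Hspa5 were the highest of the 10 in control tumors, at 272 ± 179 and 267 ± 50.5 FPKM, followed by Atf4 at 159 ± 13.5 and Xbp1 at 101 ± 14.4 FPKM (SD, 5 tumors each). Dnajc3 and Creb3l1, at 24.2 ± 2.03 and 22.0 ± 12.0 FPKM, came next, and Ddit3, Ern1, Ern2 and Atf6 lay between 10.3 and 12.8 FPKM. Hsp90b1 and Hspa5 differed by less than the SD of either, as did neighbors among Ddit3, Ern1, Ern2 and Atf6, and Dnajc3 and Creb3l1 differed by less than the SD of Creb3l1 but not that of Dnajc3. In Villin-WlscKO tumors Hspa5 headed the order at 435 ± 38.1 FPKM, above Hsp90b1 at 387 ± 137 FPKM. Creb3l1, at 37.9 ± 9.68 FPKM, then stood above Dnajc3, at 30.7 ± 3.19 FPKM, and Ern2, at 17.1 ± 2.16 FPKM, above Ddit3, Atf6 and Ern1.

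The rest of the ER folding machinery was read from a list of 20 chaperones, disulfide isomerases and oxidases. Of these, 11 rose, none fell and 9 did not pass, and all 20 had a change above 0, with a median log2 change of 0.38. Among the 11, Manf shared all values with the name Rbm15b and Pdia4 with Mir704, so their FPKM belongs to the locus. With identical entries counted once, 19 of the list were tested and 10 rose. At an unadjusted limma p under 0.05, 17 of the 20 passed. Calr, the lectin chaperone calreticulin, had 268, 255, 364, 291 and 285 FPKM in the controls and 463, 439, 511, 431 and 425 FPKM in the Villin-WlscKO group. These values did not overlap, and the log2 change was 0.64 (SE 0.099, limma adjusted p = 0.0029). Creld2, an ER stress-inducible protein that binds folding clients, went from 27.6 ± 6.26 to 44.6 ± 2.02 FPKM (SD, 5 tumors per group), a change of 0.69 (limma adjusted p = 0.00562). Ero1l, the oxidase that supplies disulfide bonds, showed the largest change of the list. It lay between 7.83 and 10.5 FPKM in the controls and between 19.1 and 26.2 FPKM in the Villin-WlscKO group, a change of 1.20 (SE 0.10, limma adjusted p = 6.67e-05). The summed FPKM of the list was between 2235 and 2873 in control tumors and between 3052 and 3338 in Villin-WlscKO tumors. The number that rose was between 6 and 13 over the alternatives, and it was 6 after quantile normalization, 7 without control tumor 1, 4 or 5 or Villin-WlscKO tumor 1 or 3, and 6 without control tumor 2, Villin-WlscKO tumor 4 or both Villin-WlscKO tumors 2 and 3.

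ER-associated degradation, which removes misfolded proteins to the proteasome, was represented by 17 tested genes, of which 4 rose (median log2 change 0.23). Herpud1, a scaffold of the degradation complex, rose from 66.9 ± 14.4 to 123 ± 25.5 FPKM (SD, 5 tumors per group), a change of 0.87 (limma adjusted p = 0.0117), which was 0.77 without Villin-WlscKO tumors 2 and 3 and then did not pass (limma adjusted p = 0.0657). Edem1 and Edem2, lectins that direct misfolded glycoproteins to degradation, rose by 0.52 and 0.57 on the log2 scale (limma adjusted p = 0.0183 and 0.000482). Edem2 was between 20.6 and 22.7 FPKM in the controls and between 30.5 and 36.6 FPKM in the Villin-WlscKO group. The number that rose was 2 without Villin-WlscKO tumors 2 and 3. Of 27 tested genes of ER translocation and ER exit, 8 rose, none fell and 19 did not pass (median 0.23), and 17 had an unadjusted limma p under 0.05. Srprb, which did not pass, shared all values with the names Trf and Gm20425. Sec24d, a coat protein of vesicles that leave the ER, rose by 0.68 (limma adjusted p = 0.0299), Kdelr3, a receptor that returns ER residents, by 0.52 (limma adjusted p = 0.0223) and Ssr1, of the translocon-associated complex, by 0.48 (limma adjusted p = 0.017). For each of these genes control tumor 3 lay above at least 1 Villin-WlscKO tumor. The call of Sec24d was lost when control tumor 1, 2, 4 or 5 or Villin-WlscKO tumor 3, 4 or 5 was left out, that of Kdelr3 without control tumor 2, 4 or 5 or Villin-WlscKO tumor 1, 4 or 5 and with a replicate block (limma adjusted p = 0.0623), and those of Sec24d and Ssr1 without both Villin-WlscKO tumors 2 and 3. This count was sensitive to single tumors. It was 4 after quantile normalization and without control tumor 1, control tumor 4 or Villin-WlscKO tumor 4, and 3 without control tumor 2, control tumor 5, Villin-WlscKO tumor 5 or the pair of Villin-WlscKO tumors 2 and 3. Without Villin-WlscKO tumor 3 it was 5, and with equal FPKM sums it was 13.

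The PERK branch and the wider integrated stress response were covered by 27 tested genes, of which 5 rose, none fell and 22 did not pass (median log2 change 0.12). Without Villin-WlscKO tumors 2 and 3, 4 of the list rose. Chac1, a glutathione-degrading enzyme induced by ATF4, was between 0.590 and 1.47 FPKM in the controls and between 2.96 and 6.01 FPKM in the Villin-WlscKO group, a change of 1.38 (SE 0.18, limma adjusted p = 0.00109). Nupr1, a small stress-induced nuclear protein, rose from 116 ± 39.2 to 254 ± 54.3 FPKM (SD, 5 tumors per group), a change of 1.17 (limma adjusted p = 0.0124), and did not pass without Villin-WlscKO tumors 2 and 3 (1.00, limma adjusted p = 0.0761). Wars, the tryptophanyl-tRNA synthetase, had the largest change of the list, from 48.0 ± 7.02 to 128 ± 11.7 FPKM (SD, 5 tumors per group), or 1.40 on the log2 scale (limma adjusted p = 3.3e-05). Wars is also a known target of interferon gamma. Asns, the asparagine synthetase that ATF4 induces, was chosen after its values were seen and rose by 0.99 (limma adjusted p = 0.000121). Trib3, another target of ATF4 and CHOP on the list, also rose. Ppp1r15a, Atf3 and Sesn2, also known as targets, did not pass. Ppp1r15a, which restores translation, had a change of 0.014 (limma adjusted p = 0.968), Atf3 of -0.29 (0.737) and Sesn2 of -0.0070 (0.985), all likewise chosen after their values were seen.

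A list of 9 death genes linked to CHOP had 3 that rose, 1 that fell and 5 that did not pass. Trib3, a pseudokinase induced by ATF4 and CHOP that was also on the preceding list, was between 0.506 and 1.13 FPKM in the controls and between 2.05 and 2.45 FPKM in the Villin-WlscKO group, a change of 0.87 (limma adjusted p = 0.0013). Casp4, an inflammatory caspase, rose by 0.82 (limma adjusted p = 0.0128) and Bak1, a pore-forming protein of mitochondria, was the other that rose. The call of Bak1 was lost without control tumor 4 or 5, Villin-WlscKO tumor 3, or both Villin-WlscKO tumors 2 and 3. In each of these settings 2 genes of the list rose. Bcl2l11, which encodes the cell death activator BIM, fell from 19.0 ± 2.76 to 11.7 ± 1.95 FPKM (SD, 5 tumors per group), a change of -0.66 (limma adjusted p = 0.0103). Of 12 tested genes for other sensors, processing proteases and CREB3 relatives, 1 rose, 1 fell and 10 did not pass (median -0.028). Mbtps1, the site-1 protease that makes the first cleavage of ATF6, was between 51.5 and 64.5 FPKM in the controls and between 37.2 and 44.6 FPKM in the Villin-WlscKO group, a change of -0.47 (limma adjusted p = 0.00404). Creb3 rose by 0.35 (limma adjusted p = 0.0298), a call lost without control tumor 1, 2, 4 or 5, Villin-WlscKO tumor 1, 2 or 3, or both Villin-WlscKO tumors 2 and 3.

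Chaperones of the cytosol and mitochondria were listed for contrast. None of 15 passed the threshold in limma in either direction, 1 had an unadjusted p under 0.05, and the median log2 change was 0.028. The smallest p was that of Dnajb1, a co-chaperone of cytosolic Hsp70, at 32.5 ± 1.68 FPKM in the controls and 37.7 ± 3.88 FPKM in the Villin-WlscKO group (SD, 5 tumors per group; change 0.20, limma adjusted p = 0.131). The summed FPKM of this list was between 2324 and 2809 in control tumors and between 2259 and 2962 in Villin-WlscKO tumors, so that the groups overlapped, unlike the summed ER chaperones. The count was 1 without Villin-WlscKO tumor 1 and 0 in every other alternative. The difference between the lists was not tested.

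**Figure D3:**
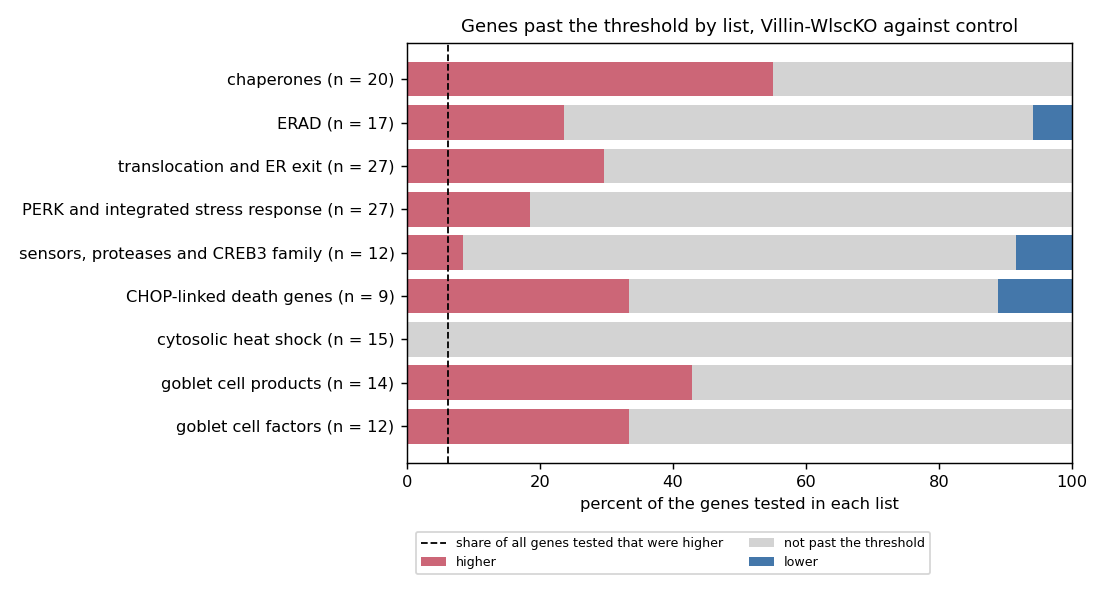
Share of the tested genes of each list that rose (red), fell (blue) or did not pass the threshold (grey), on an axis from 0 to 100 percent, with the number tested in parentheses and a dashed line at 6.12%, the share of all genes tested that were higher. With all 10 tumors as deposited, ER chaperones had the largest share that rose, 55%, and cytosolic heat shock genes had 0. The top place depended on the setting. After quantile normalization 6 of 20 chaperones and 6 of 14 goblet cell products rose. Goblet cell products also had a larger share than chaperones when any single tumor other than control tumor 3 was left out.

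Secretory load was read from a list of goblet cell products, which are folded in the ER of the epithelium. The list was Muc2, Tff3, Fcgbp, Clca1, Zg16, Agr2, Spink4, Retnlb, Ang4, Klk1, Muc13, Muc1, Muc3 and Lypd8. Not all of these are secreted cargo, since Agr2 works in the ER. Of 14 tested, 6 rose, none fell and 8 did not pass, with a median log2 change of 1.16, and of 12 goblet cell factors 4 rose, none fell and 8 did not pass (median 0.70). Earlier results on these tumors had already shown the rise of goblet cell genes, so the counts are context and not independent evidence. Muc2, the gel-forming mucin, was between 51.0 and 169 FPKM in the controls and between 248 and 549 FPKM in the Villin-WlscKO group, and its mean was 4.02-fold higher (limma adjusted p = 0.0047). Agr2, the ER disulfide isomerase that folds mucin, had 100.3, 347, 489, 198 and 484 FPKM in the controls and 1029, 722, 1066, 1195 and 1443 FPKM in the Villin-WlscKO group, a change of 1.94 (SE 0.41, limma adjusted p = 0.0142). Spdef, the transcription factor of goblet cell maturation, rose by 1.71 (limma adjusted p = 0.0232), a call lost without control tumor 4, Villin-WlscKO tumor 3 or 5, or both Villin-WlscKO tumors 2 and 3. Gfi1, a transcriptional repressor of the secretory lineage, and Galnt12, which starts mucin glycosylation, rose by 1.05 and 0.71 (limma adjusted p = 0.00673 and 0.0117). The antimicrobial products Retnlb and Ang4 had the largest changes, 3.50 and 3.29 (limma adjusted p = 0.011 and 0.000234), and that of Retnlb did not pass without Villin-WlscKO tumors 2 and 3 (0.0666). Without that pair 3 products and 3 factors rose. The number of factors that rose was 2 without control tumor 4 or Villin-WlscKO tumor 5 and 7 without control tumor 5.

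Not all products of goblet cells passed the threshold, although 13 of the 14 tested had a change above 0. Tff3, a trefoil peptide secreted with mucin, was at 631 ± 321 FPKM in the controls and 1365 ± 471 FPKM in the Villin-WlscKO group (SD, 5 tumors per group; change 1.22, limma adjusted p = 0.0746). Fcgbp, a mucus protein whose values were shared with the name 9530053A07Rik, and Zg16, a mucus lectin, had changes of 1.10 and 1.05 (limma adjusted p = 0.0993 and 0.35), and Fcgbp passed without Villin-WlscKO tumor 2 (limma adjusted p = 0.0447). Clca1, a mucus-processing protein, had 63.2, 171, 143, 128 and 199.6 FPKM in the controls and 159, 47.9, 66.7, 201 and 166 FPKM in the Villin-WlscKO group, and its change of -0.24 turned to 0.40 without Villin-WlscKO tumors 2 and 3 (limma adjusted p = 0.787 with all 10 tumors). The changes of the 3 members that rose, from 0.33 to 0.72, were smaller than the 1.94 of Agr2 and the 1.71 of Spdef, and these differences between genes were not tested.

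The order of the control tumors was compared between members and goblet cell genes as a description, and it was shared by some of them. From lowest to highest, Creb3l1, Muc2 and Agr2 gave the same order of control tumors, 1, 4, 2, 5 and 3, and Spdef and Tff3 differed from it only in that 3 and 5 changed places. Other goblet cell genes gave other orders, among them Ang4, with 5, 3, 1, 4 and 2, Retnlb, with 2, 1, 4, 5 and 3, and Gfi1, with 1, 2, 3, 5 and 4. For Ern2, control tumors 4 and 1 were again the lowest, at 5.49 and 5.79 FPKM, and the other 3 were between 11.0 and 15.1 FPKM. Hspa5 and Dnajc3 did not follow that order, since control tumor 4 was second highest for Hspa5 and highest for Dnajc3. Among Villin-WlscKO tumors, 2 was the lowest for Creb3l1, Ern2, Muc2, Agr2, Spdef and Tff3, and 5 was the highest for the same genes, whereas tumor 4 was the highest for Hspa5, Hsp90b1, Dnajc3 and Xbp1. This too did not hold for every goblet cell product, since tumor 1 was the lowest for Ang4 and Retnlb, tumor 3 the highest for Ang4, tumor 4 the highest for Retnlb, and tumor 5 the lowest for Muc1. With 5 tumors in a group, no correlation was computed.

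**Figure D4:**
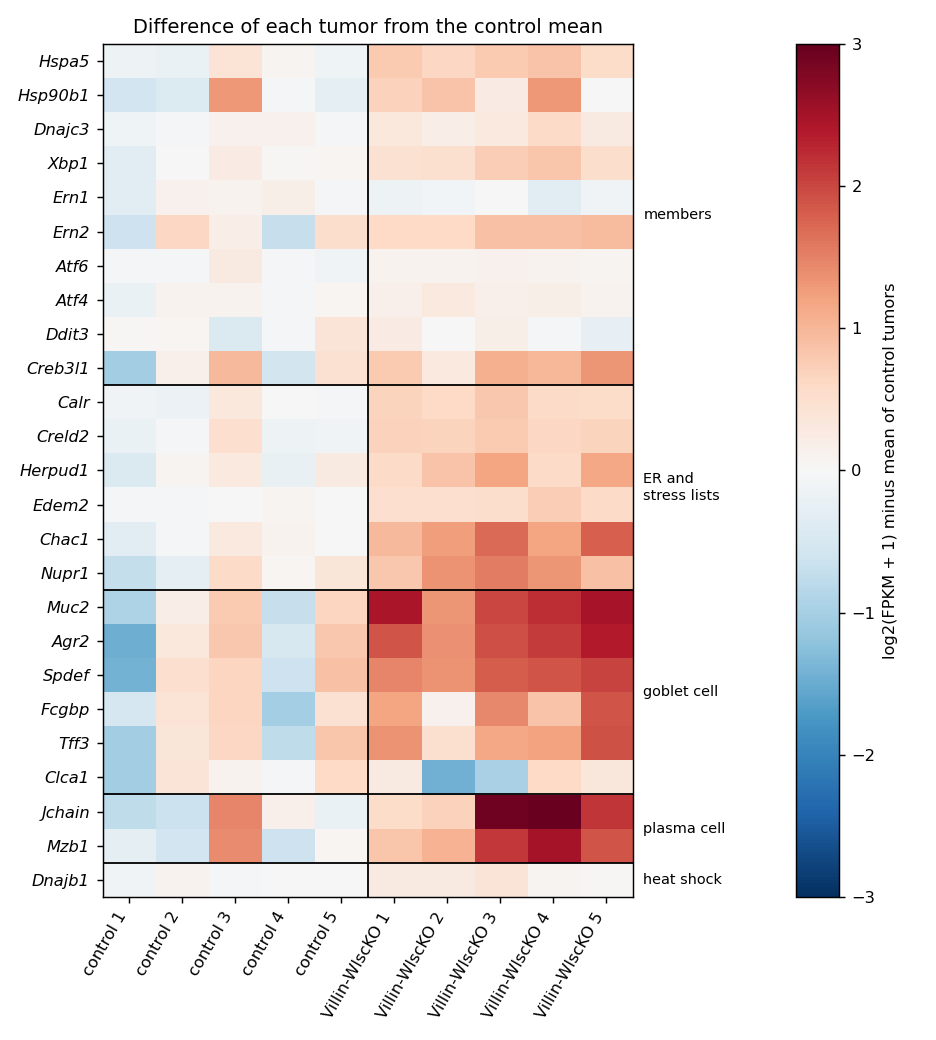
Difference of log2(FPKM + 1) in each tumor from the mean of the control tumors (color scale from -3 to 3), with members in the upper block and ER stress, goblet cell, plasma cell and heat shock genes below, and control and Villin-WlscKO tumors left and right of the line. Control tumors 1 and 4 are lowest for Creb3l1 and Ern2 as for Muc2, Agr2 and Spdef, and control tumor 3 is raised for Hsp90b1, Jchain and Mzb1.

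Other secretory cells were present in the tumors. Plasma cells have a large ER and depend on Xbp1, and of 9 tested marker genes 1 rose, none fell and 8 did not pass in limma, with 6 at an unadjusted p under 0.05. Mzb1, a co-chaperone of plasma cells that works with Hsp90b1 protein, was at 1.26, 0.854, 6.30, 0.790 and 1.88 FPKM in the controls and at 3.89, 4.71, 11.1, 14.6 and 9.20 FPKM in the Villin-WlscKO group (change 1.68, limma adjusted p = 0.0331), and it did not pass without control tumor 1, 2, 4 or 5, without Villin-WlscKO tumor 3, 4 or 5 or without both Villin-WlscKO tumors 2 and 3. Jchain, which joins secreted antibodies, was between 24.5 and 119 FPKM in the controls, with control tumor 3 the highest, and between 62.6 and 337 FPKM in the Villin-WlscKO group, with tumors 3 and 4 the highest (change 1.85, limma adjusted p = 0.0699). It passed with tumor quality weights, with a replicate block and without control tumor 3 or Villin-WlscKO tumor 1 or 2, and the number of the list that rose was between 0 and 4 over the alternatives, highest without Villin-WlscKO tumor 1. The summed level of the list was between 216 and 376 FPKM in the controls and between 279 and 621 FPKM in the Villin-WlscKO group, and no marker in the table was at 0 in all tumors. The tumor with the highest Mzb1 and Jchain in each group, control tumor 3 and Villin-WlscKO tumor 4, was also the highest in its group for Hspa5, Hsp90b1 and Xbp1. Other markers of the list differed. Among Villin-WlscKO tumors, Tnfrsf13b was also highest in 4, but Pou2af1, Cd79a and Prdm1 in 3, Derl3 in 5, Sdc1 in 2 and Pim2 in 1. Among controls, Prdm1 was highest in 1, Derl3 in 5, Pim2 in 2 and the rest in 3. Prdm1 and Pim2 had changes below 0 (-0.49 and -0.085), neither past the threshold. The part of plasma cells in the levels of Hspa5, Hsp90b1 and Xbp1 was not tested.

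Of 10 fibroblast markers none passed in limma in either direction and 0 had an unadjusted p under 0.05, with Col1a1 at 31.1 ± 16.4 and 30.9 ± 15.8 FPKM (SD, 5 tumors per group) and a summed level between 298 and 1054 FPKM in the controls and between 397 and 1193 FPKM in the Villin-WlscKO group. Of 10 pan-epithelial markers none passed, 5 had an unadjusted p under 0.05 and all 10 changes were above 0 (median 0.22), while 2 passed without control tumor 1, and 1 each without Villin-WlscKO tumor 2 and with equal FPKM sums, with a summed level between 6543 and 9219 FPKM in the controls and between 7997 and 10074 FPKM in the Villin-WlscKO group. Krt19, on the pan-epithelial list, shared all values with the names Krt13 and Krt17, so its part of that sum is not of Krt19 alone. Epcam, an adhesion protein of epithelium, was at 986 ± 46.3 and 1120.2 ± 181 FPKM (SD, 5 tumors per group). With all 10 tumors, no marker of 8 for squamous epithelium passed (0 at an unadjusted p under 0.05). Neither did any of 9 for macrophages (1 unadjusted) or of 5 for enteroendocrine and tuft cells (1 unadjusted). When Villin-WlscKO tumors 2 and 3 were left out, 1 of the 6 squamous markers then tested was lower. The summed levels of these 3 lists overlapped between the groups, with squamous markers between 44.8 and 223 FPKM in the controls and between 15.5 and 1448 FPKM in the Villin-WlscKO group. Without Villin-WlscKO tumors 2 and 3, in which the squamous keratin was high, Hspa5 and Xbp1 rose and Dnajc3 did not pass.

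In its exact letters the ERSE was rare, occurring in 39 of 32851 promoter windows (0.119%). A promoter was listed for 10688 of the tested genes, of which 18 held an ERSE, and 7 of those 18 (38.9%) rose and 0 fell, with a median log2 change of 0.33, beside 6.12% higher over all genes tested. The 7 were Hspa5, Dnajc3, Calr, Creld2, Pdia6, Syvn1 and Spats2l, of which the first 5 encode ER folding proteins and Syvn1 the ubiquitin ligase of ER-associated degradation. All but Spats2l were already counted among the members or lists above, so this share is not separate evidence of their rise. Hsp90b1 held 2 matches and did not pass, and Canx, the chaperone calnexin, held a match and did not pass (change 0.26, limma adjusted p = 0.203). Of the chaperone list, 4 of 15 genes with a listed promoter held an ERSE, compared with 0 of 11 cytosolic heat shock genes, 0 of 9 goblet cell products and 0 of 9 goblet cell factors. Other letters were also searched on both strands. ERSE-II, which is ATTGG and CCACG with 1 base between them, occurred in 0.0365% of windows, the XBP1 and ATF6 motif TGACGTGG in 0.676% and the ATF4 motif TGATGNAA in 3.97%, and none of these occurred in a member's window. Of tested genes with the respective match, 3 of 8 rose and 0 fell for ERSE-II. For TGACGTGG 13 of 117 (11.1%) rose and 3 fell, and for TGATGNAA 30 of 298 (10.1%) rose and 8 fell. Without the share that rose among all genes with a listed promoter, whether these shares are raised cannot be said. TGATGNAA was found in 9 of 25 genes with a listed promoter on the integrated stress response list. A match describes letters in the window and not binding.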

How the data were processed

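Messenger RNA of 10 macrodissected tumors was sequenced from stranded libraries. Per the labels and the methods, the authors ran FastQC, aligned to GRCm38.p5 by TopHat2 2.1.1 and quantified by Cufflinks 2.2.1 and Cuffdiff with default settings; a Cuffdiff run on unmerged transcripts served comparisons by sample. The deposited values are FPKM; the annotation release, the choice of genes and the use of strand are not given in the sources used here. All 10 columns were assigned by title and 0 were left over. No counts were used, so depth is unknown and precision rests on 5 tumors a group; 2419 names shared all values with another name.

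Tests were run on log2(FPKM + 1) in limma 3.58.1 in R 4.3.3 (eBayes with trend, two-sided, Benjamini-Hochberg adjustment, threshold 0.05) on 16757 genes whose mean FPKM reached 0.5, among them all 10 members. Changes are Villin-WlscKO minus control and, given the pseudocount of 1, understate those of low genes. The method was tested on simulated data. Summaries, motif searches and figures used Python 3.11.15, numpy 2.4.6, pandas 2.3.3 and matplotlib 3.10.9. Positions are from GENCODE M21 and promoters from RefSeq (GRCm38.p6). The members and gene lists were chosen with earlier results of these data known. Named were the members, the up to 3 largest changes past the threshold in each list (or the smallest p), fixed goblet cell and marker genes, Wls, Xist and Eif2s3y; genes with an ERSE, Bak1, Muc1, Asns, Ppp1r15a, Atf3 and Sesn2 were added after their values were seen. A result on the degradation list is not reported here. Alternatives were another pseudocount, 3 other scalings, no filter, a higher minimum (mean FPKM 5), other variance models, tumor quality weights, a replicate block, identical entries counted once and tumors left out.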

Additional observations from a re-analysis of the deposited data

Results flagged for a closer look

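Of 47 genes checked in both groups, 3 of 94 sets of 5 tumors held a tumor whose gap to the next, divided by the range of log2(FPKM + 1), was above the critical value of 0.71, and chance flags about 5% of sets. All 3 were control tumor 3. It was the highest control tumor for Atf6, at 12.5 FPKM (gap ratio 0.80), and for Creld2, at 38.6 FPKM (gap ratio 0.747), and the lowest for the Y-linked gene Eif2s3y, at 30.4 FPKM (gap ratio 0.748). The same tumor was also the highest control for Hspa5, Hsp90b1, Xbp1, Creb3l1, Jchain and Mzb1 and, narrowly, for Atf4. Without it, 5 members were past the threshold in place of 3, with Hsp90b1 and Creb3l1 in addition. Over all genes tested, 1178 of 16752 were then called higher, in place of 1026 of 16757.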

How the results depend on the processing

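In the 22 alternatives Hspa5 and Xbp1 stayed past the threshold, Dnajc3 was lost in 9, and Ern1, Ern2, Atf6, Atf4 and Ddit3 never passed. With single tumors left out, 2 to 5 members passed. The count of 5 came from leaving out control tumor 3, where 1986 of all genes passed in place of 1822. Without Villin-WlscKO tumors 2 and 3, 1101 genes passed in place of 1822, with fewer tumors compared, and 2 members did. The change of Ddit3 turned to -0.0090 after quantile normalization, -0.033 with tumor quality weights and -0.015 without Villin-WlscKO tumors 2 and 3, and lay between -0.082 and 0.12 with single tumors left out. That of Col1a1 turned to -0.0060 with median ratios, -0.028 after quantile normalization and -0.41 without that pair, and lay between -0.28 and 0.26 with single tumors left out. Epcam turned to -0.081 after quantile normalization. Clca1 turned to 0.40 without that pair and lay between -0.50 and 0.059 with single tumors left out. The cause of these reversals was not tested. Correlations between tumors of the same replicate number, after removal of group means, were 0.0638, -0.0868, 0.0626, 0.10 and 0.162. Those between tumors of different numbers were not computed, so these values cannot settle whether tumors were paired. With a replicate block 1627 genes and 3 members passed, and of the other named genes Kdelr3 was lost and Jchain gained. Depth is unknown, so no counting error could be given.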
